A study of Mus musculus with 4 samples.

Results

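The 10 genes described here encode transcription factors of the trophectoderm, the outer layer of the blastocyst, and of the trophoblast that it forms: Tead4, Cdx2, Eomes, Elf5, Gata2, Gata3, Tfap2a, Tfap2c, Ascl2 and Hand1. Their rows were picked out by gene symbol, and all 10 were found, each in 1 of the 46406 rows of the table. The study measured chromatin accessibility by ATAC-seq, in which the Tn5 transposase cuts and tags open DNA, in mouse J1 embryonic stem cells. J1 is an established line from the inner cell mass of a blastocyst, and all 4 libraries come from cells labelled as passage PN+8, grown feeder-free under traditional conditions. The 2 control libraries carry the genotype wild type, and the 2 other libraries come from cells that overexpress Zscan4 (Zscan4 OE), a zinc finger protein of the 2-cell embryo. Which Zscan4 copy was expressed, from which promoter, for how long and in how many clones was not stated in the sources used here. Separate cultures were not stated for the replicates either, and the p-values therefore describe a spread between libraries that may be technical. In bulk libraries, fewer open cells and less opening per cell cannot be told apart.

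In the embryo, Tead4 works with the Hippo pathway co-activator Yap1 to switch on Cdx2 in outer cells, while Gata3 acts beside Cdx2. Cdx2, Eomes, Elf5 and Tfap2c then keep trophoblast stem cells in their state, and Ascl2 and Hand1 serve later, in the spongiotrophoblast and in the giant cells. Embryonic stem cells keep most of this program silent, and the Elf5 promoter is known for its DNA methylation in them. ATAC-seq reports how open DNA is, not how much RNA is made. The values here cover exons, with those at the gene start not kept apart, so they do not measure promoters or enhancers by themselves.

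The 3 upstream sequences below show how different the starts of these genes are, with every CpG, the dinucleotide that DNA methylation uses, in capitals. Each is the 250 bases before the gene's RefSeq start (build GRCm38.p6), on the gene's own strand, 5′ to 3′. They are shown as the opposite ends of CpG content among the 7 genes with a matched window (Gata2 and Elf5) and as the start of the gene whose libraries did not overlap upwards (Cdx2). They lie at chr6:88193641-88193890 (plus strand), chr2:103411848-103412097 (plus strand) and chr5:147307250-147307499 (minus strand).
Gata2: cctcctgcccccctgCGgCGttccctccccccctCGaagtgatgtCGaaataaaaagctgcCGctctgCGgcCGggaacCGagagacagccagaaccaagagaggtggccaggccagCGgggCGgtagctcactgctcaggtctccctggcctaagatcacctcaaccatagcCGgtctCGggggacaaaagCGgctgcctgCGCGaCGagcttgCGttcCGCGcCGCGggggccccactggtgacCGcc
Elf5: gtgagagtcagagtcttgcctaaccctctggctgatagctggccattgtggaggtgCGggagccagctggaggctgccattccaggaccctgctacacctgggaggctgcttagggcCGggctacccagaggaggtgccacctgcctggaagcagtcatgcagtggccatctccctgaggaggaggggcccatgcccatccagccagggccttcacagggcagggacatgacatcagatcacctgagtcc
Cdx2: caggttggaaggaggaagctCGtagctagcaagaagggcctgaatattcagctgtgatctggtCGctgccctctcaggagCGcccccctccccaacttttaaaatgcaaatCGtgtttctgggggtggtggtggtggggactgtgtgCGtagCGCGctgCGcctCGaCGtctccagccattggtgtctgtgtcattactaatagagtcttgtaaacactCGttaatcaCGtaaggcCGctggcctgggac
The Gata2 window held 22 CpGs, the Cdx2 window 13 and the Elf5 window 2, against a median of 10 over 17492 protein-coding genes. The Elf5 window was nonetheless rich in G and C, at 62.8%, so its ratio of observed to expected CpG was 0.08, against 0.69 for Cdx2 and 0.78 for Gata2. RefSeq windows were matched for 7 of the 10 genes, and the other 4 of these, Eomes, Tfap2a, Gata3 and Ascl2, held 8, 10, 19 and 19 CpGs. The Gata3 and Tfap2a windows lay inside the gene spans given below, at chr2:9878601-9878850 and chr13:40734921-40735170 (both minus strand). They therefore precede a start within the gene, not the outer end of its span.

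Short motifs of the factors' own families were looked for on both strands of these 7 windows. The TEAD motif GGAATG was found in the Elf5 window, while 11.6% of all protein-coding windows held it. The AP-2 motif GCCNNNGGC was found in the Cdx2 and Gata3 windows (15.9% of all windows), and the CDX motif TTTATG in the Tfap2a window (9.38%). The E-box CANNTG, the motif of Hand1 and Ascl2, was found in the Ascl2, Cdx2 and Elf5 windows (62.7%). The GATA motif AGATAA and the T-box motif GGTGTGA were in none of the 7 (9.1% and 3.07% of all windows). No motif contains another, though matches may overlap, and a match is a run of letters, not a bound site. The matches in the Gata3 and Tfap2a windows lie inside the annotated spans of those genes.

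The libraries were shallow, and this limits every value below. Control 1 held 1061428 reads, control 2 held 2903602, Zscan4 OE 1 held 3605774 and Zscan4 OE 2 held 4899494, of which 9.38% to 12.8% fell on exons. The 10 genes together held 51, 91, 154 and 174 reads, and a single gene between 1 and 28 reads in a library. Values are RPKM, reads scaled by exon length and library total. The deposited values had been divided by totals that change from row to row, so each was rescaled to its own library's total, as inferred from the values. The genes' feature lengths, recovered with the reads, ran from 1623 bp (Ascl2) to 5877 bp (Elf5), and covered from 4.88% of the annotated gene span in Tead4 to 66.4% in Ascl2.

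**Figure D1:**
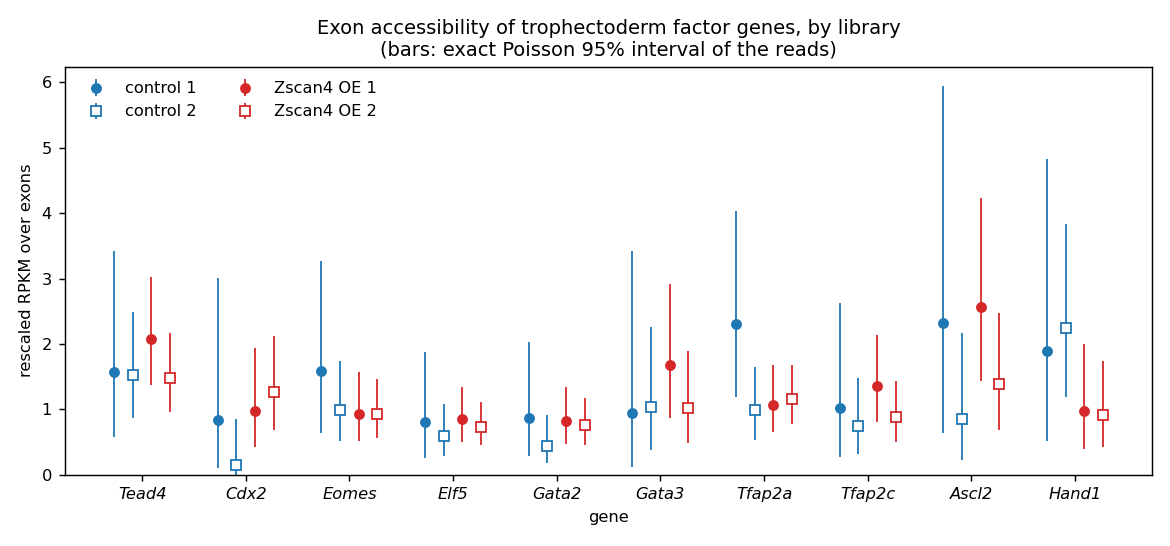
Rescaled RPKM over exons (y axis) of the 10 genes (x axis) in each library, with exact Poisson 95% intervals of the reads as bars, blue for control and red for Zscan4 OE. Most points lie between 0.4 and 2.6 RPKM, the intervals of the 4 libraries overlap in all 10 genes, and Hand1 has both red points below both blue points.

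The comparison of Zscan4 OE with control asks whether these genes became more or less accessible when Zscan4 was overexpressed, and none passed the test. Hand1 was lower in both Zscan4 OE libraries, at 0.458 times its control mean. Cdx2 was higher in both, at 2.28 times, and its control values rested on 3 reads in all. Eomes was also lower in both, at 0.723 times, and the other 7 genes had overlapping groups. Limma on log2(RPKM + 0.1), with Benjamini-Hochberg adjustment over 42989 rows, called 0 of the 10 genes at an adjusted p under 0.05, and 0% of all rows. That share over all rows was not stable when a Zscan4 OE library was left out, and such fits hold 1 library in a group. With all libraries, the adjusted p of the 10 genes ran from 0.853 (Hand1) to 0.978 (Elf5). Of them 0 had an unadjusted p under 0.05, against 6.42% of all rows. Groups without overlap were found in 1 gene that was higher (Cdx2), against 19.6% of all rows, and in 2 that were lower (Hand1 and Eomes), against 10.1%. With 2 libraries a group, the smallest p of an exact permutation test is 0.333.

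Of the differences 7 were positive and 3 negative, with a median of 0.23 on the log2 scale, while the median over all rows was 0.28 and 62% of rows were positive. The median of the genes was thus close to that of the table as a whole. Among the 19012 rows with 20 reads or more, which all 10 genes reached, the median of all rows was 0.14. At that filter limma called 0 of the 10 genes, as it called 0.0263% of rows, and their lowest adjusted p was 0.977 (Cdx2). None had an unadjusted p under 0.05 there, against 5.03% of rows. Voom, which weights each value by its reads, called 0.00526% of these rows and 0 of the 10 genes, with adjusted p from 0.948 to 0.99.

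Summed over the 10 genes, accessibility differed between groups by less than the spread within them. The sums were 48.0 RPM (reads scaled by library total alone, with no length) in control 1 (exact Poisson 95% interval 35.8 to 63.2) and 31.3 in control 2 (25.2 to 38.5). In Zscan4 OE 1 and 2 they were 42.7 (36.2 to 50.01) and 35.5 (30.4 to 41.2). Both Zscan4 OE libraries lay between the controls. The group means, 39.7 ± 11.8 and 39.1 ± 5.09 RPM (SD, n = 2), gave a ratio of 0.985. The libraries numbered 1 exceeded those numbered 2 in 8 of the 10 genes in the controls and in 8 of 10 in Zscan4 OE, as they did in 65.0% and 72.3% of all rows with 20 reads or more.

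Tead4, the DNA-binding partner of Yap1 that acts first in the trophectoderm, lies on chromosome 6 (128227143 to 128300813, GRCm38). In the order control 1, control 2, Zscan4 OE 1, Zscan4 OE 2, kept for every gene below, it had 6, 16, 27 and 26 reads, or 1.57, 1.53, 2.08 and 1.47 RPKM. The controls were nearly equal and lay between the Zscan4 OE libraries. The group means were 1.55 ± 0.0280 and 1.78 ± 0.429 RPKM (SD, n = 2), with a log2 difference of 0.17 (SE 0.441). Tead4 stood at the 74.8th to 87.6th percentile of the 19690 protein-coding rows that had reads.

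Cdx2, the homeobox factor that defines the trophectoderm, lies on chromosome 5 (147300900 to 147307249). It had the fewest reads of the 10 genes, 2, 1, 8 and 14, or 0.833, 0.152, 0.981 and 1.26 RPKM. The groups did not overlap, though Zscan4 OE 1 stood only slightly above control 1, and control 2 stood apart from the rest. The means were 0.493 ± 0.482 and 1.12 ± 0.200 RPKM (SD, n = 2), and the log2 difference was 1.32 (SE 0.830, 95% interval −0.89 to 3.54, limma adjusted p = 0.869). Its size depended on which control was kept. The log2 difference was 0.38 without control 2 and 2.27 without control 1. Without control 1 the controls were 1 library with 1 read of Cdx2, so no p is given for that value.

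Eomes and Elf5 sustain trophoblast stem cells beside Cdx2. Eomes, a T-box factor gene on chromosome 9 (118478186 to 118486132), had 7, 12, 14 and 19 reads, or 1.59, 0.995, 0.934 and 0.933 RPKM. The Zscan4 OE libraries were lower than both controls, but control 2 exceeded them by only a small margin. Its log2 difference was −0.39 (SE 0.492), and −0.08 without control 1, the higher control. Elf5, an ETS factor gene on chromosome 2 (103412098 to 103450989), had 5, 10, 18 and 21 reads, or 0.802, 0.586, 0.849 and 0.729 RPKM. Elf5 lay between the 36.7th and the 43.7th percentile in the 4 libraries, and its groups overlapped, with a log2 difference of 0.17 (SE 0.528).

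Gata2 and Gata3 encode zinc finger factors of the trophoblast, and Gata3 can drive stem cells toward that fate. Gata2, on chromosome 6 (88193891 to 88207032), had 5, 7, 16 and 20 reads, or 0.873, 0.447, 0.822 and 0.756 RPKM. The Zscan4 OE values fell between the controls, and the log2 difference was 0.29 (SE 0.587). Gata3, on chromosome 2 (9857078 to 9887953), had 2, 6, 12 and 10 reads, or 0.947, 1.04, 1.67 and 1.03 RPKM. Only Zscan4 OE 1 stood above the controls, and the log2 difference was 0.37 (SE 0.493), or 0.04 without Zscan4 OE 1.

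Tfap2a and Tfap2c encode AP-2 factors, of which Tfap2c is needed to maintain the trophectoderm lineage. Tfap2a, on chromosome 13 (40713802 to 40738238), had 12, 14, 19 and 28 reads, or 2.31, 0.983, 1.07 and 1.17 RPKM. Control 1 alone was high, so that the log2 difference of −0.40 (SE 0.576) became 0.17 without it. Tfap2c, on chromosome 2 (172545678 to 172558622), had 4, 8, 18 and 16 reads, or 1.024, 0.749, 1.36 and 0.888 RPKM. Its groups interleaved, with a log2 difference of 0.30 (SE 0.513), and 0.02 without Zscan4 OE 1.

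Ascl2 and Hand1 are basic helix-loop-helix factors of the differentiating placenta. Ascl2, an imprinted gene on chromosome 7 (142966822 to 142969264), had 4, 4, 15 and 11 reads, or 2.32, 0.849, 2.56 and 1.38 RPKM. The ranges of the groups overlapped, and the log2 difference of 0.39 (SE 0.674) turned to −0.29 without control 2. Hand1, on chromosome 11 (57828713 to 57832147), had 4, 13, 7 and 9 reads, or 1.89, 2.24, 0.972 and 0.920 RPKM. Both controls were high and close together, and both Zscan4 OE libraries were low and close together. The exact Poisson 95% intervals of the reads still overlapped across all 4 libraries, with 0.514 to 4.83 RPKM in control 1. The means were 2.06 ± 0.251 and 0.946 ± 0.0370 RPKM (SD, n = 2), a difference larger than the spread between replicates. The log2 difference was −1.04 (SE 0.429, 95% interval −2.19 to 0.10), with an unadjusted p of 0.0651 and an adjusted p of 0.853 in limma. It stayed between −1.16 and −0.93 whichever library was left out. Among protein-coding rows Hand1 stood at the 81.6th and 96.5th percentile in the controls and at the 48.0th and 58.0th in Zscan4 OE.

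**Figure D2:**
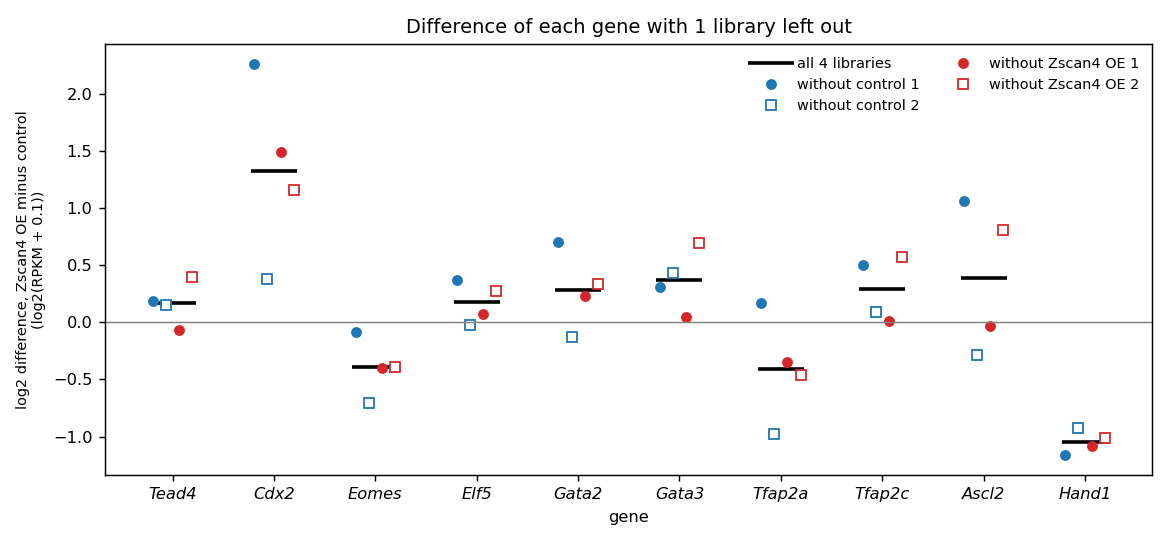
Log2 difference of each gene between Zscan4 OE and control on the log2(RPKM + 0.1) scale (y axis), with all 4 libraries (black bar) and with each library left out in turn (points). The Hand1 points stay between −1.16 and −0.93, whereas the Cdx2 points run from 0.38 to 2.27 and those of Tfap2a, Gata2, Elf5, Tead4 and Ascl2 lie on both sides of 0.

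The order of the genes by level was loose in both groups, and the ranks of the means differed between them. In the controls it ran from Hand1 (2.06 RPKM) through Tfap2a, Ascl2, Tead4, Eomes, Gata3, Tfap2c, Elf5 and Gata2 to Cdx2 (0.493), and 0 of 9 neighbouring pairs differed by more than the larger of their SDs. In Zscan4 OE it ran from Ascl2 (1.97) and Tead4 (1.78) through Gata3, Cdx2, Tfap2c, Tfap2a, Hand1, Eomes and Elf5 to Gata2 (0.789). There 2 of 9 neighbouring pairs, Tfap2a above Hand1 and Eomes above Elf5, differed by more than the larger SD. In rank of the means Hand1 went from 1 to 7 and Cdx2 from 10 to 4, but the reads do not resolve these ranks. The Zscan4 OE means of Cdx2, Tfap2c and Tfap2a were 1.123, 1.122 and 1.12 RPKM, and the Cdx2 control mean rested on 3 reads. In level the 10 genes resembled ordinary genes, since 7, 6, 5 and 8 of them lay above the protein-coding median of 0.921, 0.753, 1.01 and 0.825 RPKM in the 4 libraries.

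The values as deposited told another story, because the divisor differed from row to row. Which total belongs to which library was inferred, and the values below hold for that placement. Under it Cdx2 was the 1 gene of the 10 whose row used each library's own total, and its deposited and rescaled values are equal. For Tfap2a and Elf5, control 1 had been divided by 2.74 times its own total and Zscan4 OE 2 by 0.217 times its own. The deposited Elf5 values were 0.293, 0.706, 1.37 and 3.37, a ratio of 4.74 between group means, against 1.14 after rescaling. Tfap2a went from 3.51 to 0.681 and Eomes from 2.05 to 0.723. As deposited, all 10 differences were positive and 9 of the 10 genes, all but Hand1, had higher Zscan4 OE values without overlap, as did 47.5% of all rows. The median log2 difference of the 10 genes was then 1.43, beside 1.40 over all rows, with 0 genes called and a lowest adjusted p of 0.338 (limma).

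**Figure D3:**
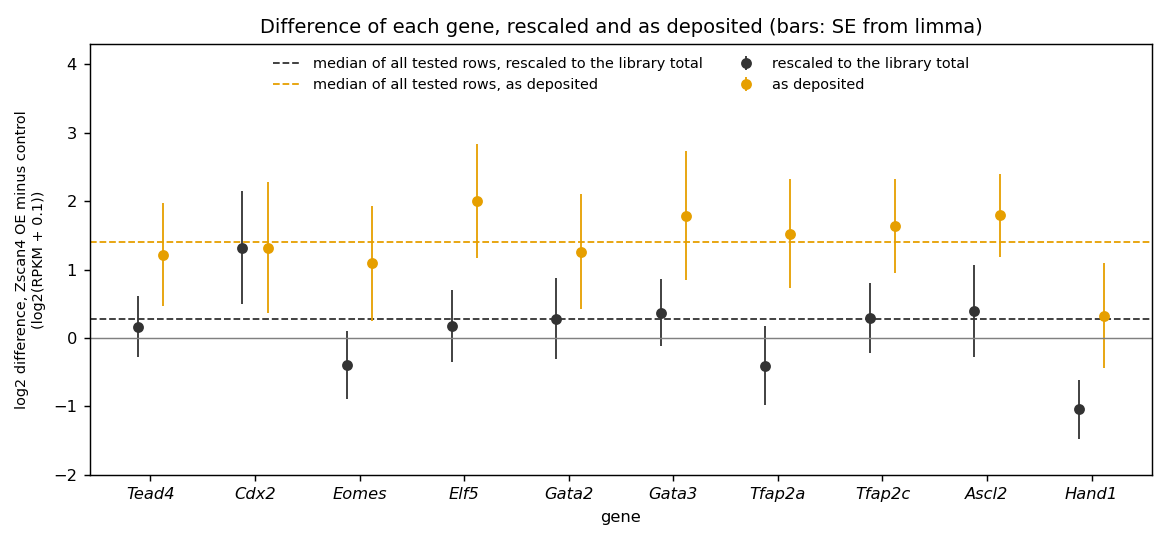
Log2 difference between Zscan4 OE and control (y axis, log2(RPKM + 0.1) scale, bars are the limma SE) of the 10 genes in rescaled values (black) and in values as deposited (orange), with the median of all tested rows as dashed lines at 0.28 and 1.40. The orange points lie above 0 in all 10 genes and scatter around their dashed line, and the black points scatter around theirs, with Cdx2 above and Hand1 below.

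The factors' paralogs, genes of the same families with other main roles, were compared as a list of 24 genes. Of these 0 were called in either direction, and the median log2 difference was −0.03. Without overlap 4 were higher (16.7%, against 19.6% of all rows) and 1 lower (4.2%, against 10.1%). The largest statistics were those of Ascl3 (0, 0, 4 and 3 reads) and Ascl5 (0, 1, 10 and 2 reads) upwards, and of Tfap2b (13, 30, 25 and 23 reads, log2 difference −0.90) and Tfap2d (5, 8, 13 and 4 reads, −0.96) downwards. Ascl3 passed the filter on low values only through its Zscan4 OE libraries, so its place in that order carries no weight and no fold or p is given. Cdx1, another Cdx gene, had 2, 2, 9 and 14 reads and a log2 difference of 1.09 (SE 0.621), with groups that did not overlap either. Cdx4 had 2, 4, 9 and 9 reads and 0.37 (SE 0.501). Hand2, the paralog of Hand1, had 5, 6, 15 and 12 reads, overlapping groups and a log2 difference of 0.03 (SE 0.611), and the difference between the paralogs was not tested. In the TEAD family Tead4, at a mean of 1.66 RPKM over the 4 libraries, lay within the range of Tead1 (1.44), Tead2 (1.36) and Tead3 (2.04).

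**Figure D4:**
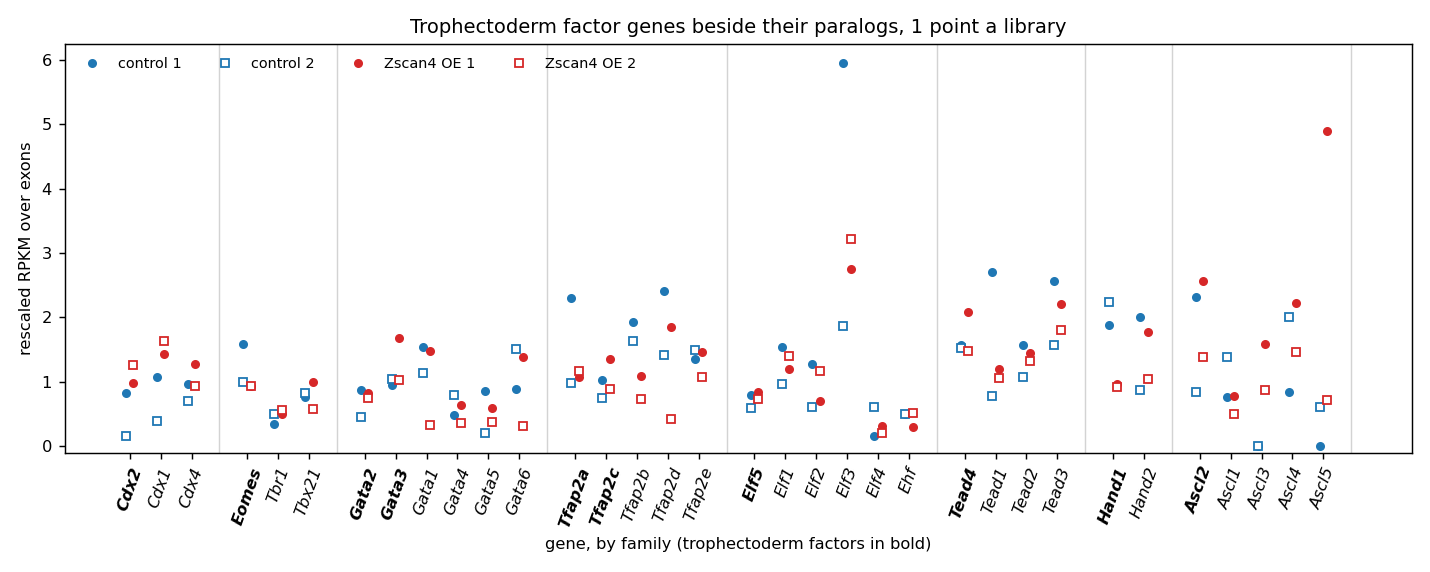
Rescaled RPKM over exons (y axis) of the trophectoderm factor genes (bold) and their paralogs, grouped by family along the x axis, with 1 point a library, blue for control and red for Zscan4 OE. Hand1 has both control points, 1.89 and 2.24 RPKM, above both of its Zscan4 OE points, Cdx2 and Cdx1 both have their Zscan4 OE points on top, and the control and Zscan4 OE points of Hand2 are intermixed.

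Genes that act before the factors, in the Hippo and Notch pathways, were tested as a list of 14, and 0 were called. Without overlap 3 were higher (21.4%, against 19.6% of all rows) and 0 lower (10.1% of all rows), and the median log2 difference was 0.09. Wwtr1, the co-activator TAZ that acts like Yap1, had the largest statistic, with 2, 8, 33 and 41 reads and a mean of 0.485 ± 0.129 RPKM in controls against 1.83 ± 0.116 under overexpression (SD, n = 2; log2 difference 1.74, SE 0.488, limma adjusted p = 0.538). Amot, an angiomotin that holds Yap1 out of the nucleus, followed with 1, 6, 12 and 11 reads (log2 difference 0.78). Tead1 and Nf2 stood at the lower end, with −0.36 and −0.20. Of 12 partners of the trophoblast stem cell state 0 were called, with a median of 0.04. Without overlap 1 was higher (8.3%, against 19.6% of all rows) and 2 lower (16.7%, against 10.1%). Esrrb (0.33) and Zfp281 (0.24) were at the upper end and Sox21 (−0.56) and Id2 (−0.33) at the lower.

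Genes that act after the factors were split by stage. Of 17 genes of the trophectoderm epithelium, its keratins, junctions and transporters, 0 were called, and the median log2 difference was 0.09. Without overlap 7 were higher (41.2%, against 19.6% of all rows) and 1 lower (5.9%, against 10.1%), which was not tested as a set. Krt18, a keratin of this epithelium, had read counts of 0, 1, 6 and 9 (log2 difference 2.84, SE 0.890, limma adjusted p = 0.627). As its control 1 had 0 reads, the size of that difference depends on the added 0.1 RPKM. Tjp1, the tight junction protein ZO-1, had 5, 13, 40 and 38 reads (log2 difference 0.91, SE 0.508). Krt7 was at the lower end, with 8, 21, 13 and 20 reads and a log2 difference of −0.83 (SE 0.503), beside Aqp8 (−0.79). The summed epithelial reads overlapped between groups, at 66.9 and 63.0 RPM in controls and 81.8 and 65.1 in Zscan4 OE. Of 16 placental differentiation genes 15 were in the table and 14 were tested, with 0 called and a median of −0.07. Without overlap 2 were higher and 2 lower (14.3% each, against 19.6% and 10.1% of all rows). Peg10 (2, 9, 36 and 33 reads, log2 difference 1.52) and Plac1 (0, 2, 7 and 7 reads) led upwards, and Prl3b1 (1, 3, 2 and 1 reads) and Plet1 (2, 8, 2 and 12 reads) downwards, on counts too low to rank them.

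Markers of the cell types that a stem cell culture could hold were read beside these values. All 10 stem cell markers had reads, with a mean of 2.26 and 1.32 RPKM in controls and 3.10 and 1.89 in Zscan4 OE, and 0 of them were called. Tdgf1 and Dppa5a had the largest positive statistics (log2 differences 1.20 and 3.36), and Lin28a and Klf4 the largest negative ones (−0.59 and −0.53). Dppa5a had 0, 3, 12 and 10 reads, so the size of its difference depends on the added 0.1 RPKM. Of 12 fibroblast markers none was at 0 in all 4 libraries and 0 were called, and their summed level was 44.8 to 47.1 RPM in controls and 41.4 to 41.6 in Zscan4 OE. S100a4 (0, 1, 2 and 2 reads) and Twist1 (1, 0, 3 and 4 reads) stood at the upper end (2.27 and 1.22). Both had a control at 0 reads, so the size of their differences depends on the added 0.1 RPKM. Col3a1 and Loxl1 were at the lower end (−0.72 and −0.63). Of 10 primitive endoderm markers none was at 0 throughout and 0 were called, and their sum was between 59.6 and 68.8 RPM in controls and between 48.6 and 54.1 in Zscan4 OE. Col4a1 and Dab2 were at the upper end (0.45 and 0.18) and Sox17 and Foxa2 at the lower (−0.87 and −0.71). Per library total, both sums were lower in Zscan4 OE, as was Hand1. As a share of exon reads the fibroblast sums overlapped, at 0.0381% and 0.0477% in controls against 0.0325% and 0.0417%, while the primitive endoderm sums did not, at 0.0556% and 0.0635% against 0.0422% and 0.0489%. Their part in the Hand1 difference was not tested. The mean of the fibroblast markers was 0.696 to 0.829 RPKM over the 4 libraries, and that of the primitive endoderm markers 0.791 to 1.19.

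The rows most like the mean pattern of the 10 genes over the 4 libraries, by Euclidean distance of log2(RPKM + 0.1) among rows with 20 reads or more, were Ociad1 (distance 0.075), Ppp6c (0.138) and Bag4 (0.141). Ociad1 had 1.37, 0.812, 1.21 and 0.999 RPKM. In it, as in the mean of the 10 genes, the library numbered 1 was the higher of its group in both groups. As the row was picked for its nearness to that mean, the shared pattern follows from the choice.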

How the data were processed

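ATAC-seq reads over gene features were compared between 2 control and 2 Zscan4 OE libraries. The submitters' processing notes name featureCounts, Bowtie2, Trimmomatic and mm10. Versions, read filters, any Tn5 shift and the annotation were not stated there. The authors deposited RPKM values, which were whole reads divided by feature length and by 1 of 8 totals that rotate from row to row. The totals came from 2461 rows of short RNAs, whose lengths RefSeq gives (252 to 283 single-read values each, and 2 for the ninth candidate). Exactly 1 rotation gave whole reads and lengths, within the rounding of the last deposited digit, in each of the 38361 rows that held at least 2 nonzero values. The shortest length that solved a row was taken, and it equalled the known one in 86.8% of 1136 short RNAs. Which total belongs to which library is not given, so of the 8 placements in rotation order the one with the most even exon share was taken (highest over lowest 1.36, next best 4.17). A separate look, at the first chromosome 1 gene with reads, gave rotation 7 and not the rotation 0 that was taken. Placed by rotation 7, the exon shares had a highest over lowest of 4.37. Values were rescaled to the totals placed by rotation 0.

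Groups were compared with limma 3.58.1 (R 4.3.3), two-sided with an eBayes trend, on log2(RPKM + 0.1) of rows whose mean reached 0.1 RPKM, adjusted over all tested rows with a threshold of 0.05. A log2 difference on this scale understates the change of low genes. Intervals of reads cover counting error only. The genes and lists were chosen with earlier results of these data known. Beside the 10 genes, the text names the 2 highest and 2 lowest limma statistics of each list, paralogs set beside a gene, and the 3 nearest rows. Promoter sequences are from RefSeq, GRCm38.p6. The scripts were tested on simulated data. Alternatives were 2 pseudocounts, 2 filters, 4 scalings, voom, a replicate block and leaving out each library.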

Additional observations from a re-analysis of the deposited data

How the results depend on the processing

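The count of 0 called among the 10 genes held with a pseudocount of 1 or 0.01, no filter, 20 reads or more, each scaling, voom at 20 reads or more, and each library left out of the planned test. It became 1 (Cdx2) only with 20 reads or more and without control 1, so these fits ranged from 0 to 1. Over all rows the count was 5 with 20 reads or more and 1 with voom at that same filter. With a library left out it ranged from 0 to 4349, the highest without Zscan4 OE 1, and was 3862 without Zscan4 OE 2. In fits added after seeing the data, at 20 reads or more, leaving out control 1 gave 539 and control 2 gave 985, while leaving out Zscan4 OE 1 gave 7 and Zscan4 OE 2 gave 30. The summed ratio of 0.985 was 2.94 as deposited and 0.814 to 1.25 with a library left out.

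As deposited, Eomes (1.09), Tfap2a (1.53) and Hand1 (0.32) reversed, by the totals used. Centring on the median gave −0.10 for Elf5 and −0.11 for Tead4, and quantile normalization −0.046 for Elf5. With a library left out the ranges that crossed 0 were −0.98 to 0.17 for Tfap2a, −0.13 to 0.70 for Gata2, −0.023 to 0.37 for Elf5, −0.068 to 0.40 for Tead4 and −0.29 to 1.07 for Ascl2, whose value without Zscan4 OE 1 was −0.031, also at 20 reads or more. Where no cause is named, the cause was not tested. Cdx2, Eomes, Gata3, Tfap2c and Hand1 kept their direction with each library left out. Filters and the replicate block leave a gene's log2 difference as it is, so they bear only on its p. The unadjusted limma p of Hand1 moved with the setting, from 0.0651 in the main fit to 0.102 with a pseudocount of 1. It was 0.0409 with a pseudocount of 0.01, 0.0466 scaled to exon reads, 0.0282 centred on the median and 0.0488 with quantile normalization. The adjusted p of Hand1 in those fits ran from 0.633 to 0.889. In the same order, 558, 804, 908 and 1006 rows were lower at an unadjusted p under 0.05, and 2543, 2470, 1888 and 1565 higher. These counts are of 42989 rows, or 43019 scaled to exon reads. The unadjusted limma p of Hand1 was 0.0604 with no filter and 0.0798 with 20 reads or more. It was 0.0627 with voom, 0.0727 with the replicate block and 0.692 as deposited.

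The replicate numbers are only labels. The deviations of same-numbered libraries correlated at 0.129 across 19012 rows with 20 reads or more, and the replicate block called 0 rows and 0 of the 10 genes, with a summed ratio of 1.004. Depth limits every value, with 1 to 28 reads a gene and library.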
